A study of Mus musculus with 4 samples.

Results

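Chromatin accessibility was examined at 9 genes that mark lymphocytes, Cd3e, Cd4, Cd8a, Lck, Tcf7, Cd79a, Ms4a1, Ebf1 and Ncr1, out of 21887 protein-coding genes placed in mm10. The genes were chosen by name. Open regions inside these genes or up to 10 kb from either end were taken, which gave 13 of the 61972 regions of the study. The assay was ATAC-seq, in which a transposase inserts adapters into accessible DNA, and the samples were dissected, frozen lung tumour tissue from 4 mice labelled strain C57B6J, all aged 55 weeks.

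All mice carried 1 copy of KrasLA1 (genotype KrasLA1/+), a latent oncogenic allele activated by spontaneous recombination and not by a Cre driver limited to 1 cell type. The KrasLA1 group had 2 mice, and the KrasLA1;Dicer1S2D group had 2 mice that also carried 1 copy of Dicer1S2D (genotype KrasLA1/+;Dicer1S2D/+), a phosphomimetic form of the gene for the enzyme that cuts microRNA precursors. Replicate 1 was female and replicate 2 male in both groups, so sex and replicate number cannot be told apart. A peak, the stretch in which the authors called a library open, has a position only, with no height, score or read count. The authors called 34767 to 50282 peaks per library, and the number of reads behind them is unknown. In bulk tumour, fewer cells of a type and less accessible chromatin per cell cannot be told apart.

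T cells recognise antigen through a receptor that signals by its CD3 chains, while the coreceptors CD4 and CD8 bring the kinase Lck to it. B cells signal through CD79 chains beside surface immunoglobulin, and natural killer cells use activating receptors such as NKp46. Lung tumours can hold all of these cells among the epithelial tumour cells.

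Of the 9 genes, 3 (Cd3e, Cd8a and Ncr1) had 0 regions within 10 kb, as did 23.1% of autosomal protein-coding genes. Of the regions at the other 6 genes, 0 were called in both tumours of one genotype and neither of the other. The KrasLA1 tumours had a peak in 10 and 10 of the 13 regions, and the KrasLA1;Dicer1S2D tumours in 9 and 9 (replicates 1 and 2). The difference between group means was -1 region. It was -3 with peaks of at least 300 bp, with 10 and 9 regions in the KrasLA1 and 7 and 6 in the KrasLA1;Dicer1S2D tumours. Those peaks called 48.2% and 57.8% of autosomal regions in KrasLA1 replicates 1 and 2, against 54.1% and 40.8% in KrasLA1;Dicer1S2D. The difference was -5.5 where a single peak had to cover 50% of a region, an alternative chosen for this value after seeing the data. That rule left 10 and 10 regions in the KrasLA1 and 4 and 5 in the KrasLA1;Dicer1S2D tumours, against 58.5%, 69.7%, 70.8% and 45.3% of autosomal regions in the 4 libraries. Genes with a peak within 10 kb numbered 4 and 6 of the 9 for KrasLA1 and 4 and 5 for KrasLA1;Dicer1S2D, against 72.3%, 72.6%, 73.5% and 70.4% of autosomal protein-coding genes in the 4 libraries in that order. Over all 60713 autosomal regions the shares called were 66% and 71.8% in KrasLA1 replicates 1 and 2, against 78.8% and 54.9% in KrasLA1;Dicer1S2D replicates 1 and 2. At the lymphocyte loci the same shares were 76.9%, 76.9%, 69.2% and 69.2%. Of the 13 regions 0 were gained (called in both KrasLA1;Dicer1S2D and neither KrasLA1 library), against 0.596% of all autosomal regions, and 0 were lost (the reverse), against 1.42%. With 2 libraries against 2, an exact two-sided permutation test cannot go below p = 0.333, so presence was not tested.

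Of the 13 regions 6 were called in all 4 libraries (46.2%, against 43.5% of autosomal regions), 2 in 3, 3 in 2 and 2 in 1 library (15.4%, against 27.7%). Regions ranged from 218 to 1604 bp in width with a median of 550 bp, against 484 bp over all autosomal regions. By position, 5 regions lay in the body of a lymphocyte gene and 8 outside it. The nearest protein-coding gene was another gene for 7 of the 13, namely P3h3, Gpr162, Rps19, Arhgef1 and Hdac1. These counts therefore hold several gene ends of neighbours.

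**Figure D1:**
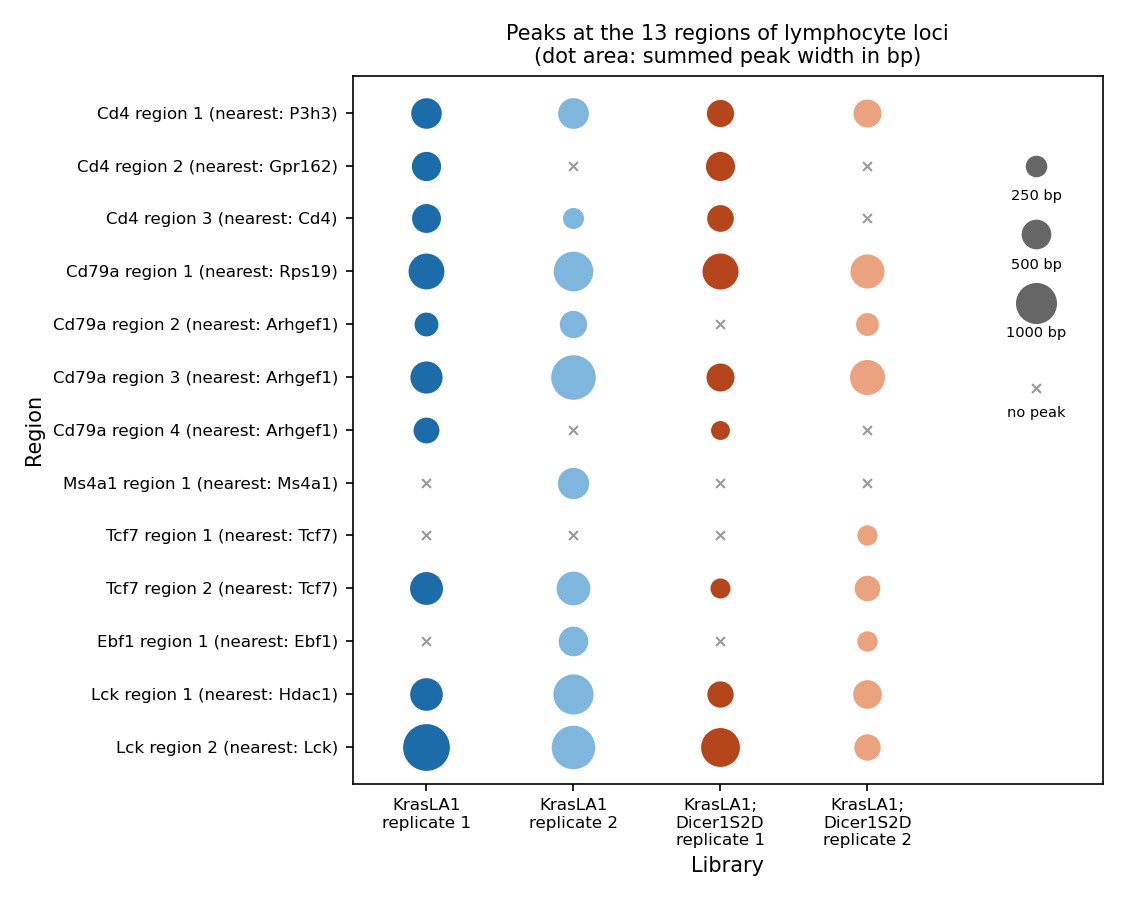
Peaks at the 13 regions within 10 kb of lymphocyte genes, 1 row per region and 1 column per library, with the dot area proportional to the summed peak width in bp and a cross where no peak was called. Each KrasLA1 column has 10 dots and each KrasLA1;Dicer1S2D column 9, and the gene nearest to each region is given beside its name.

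Sequences of 150 bases at or near the upstream side of annotated start sites are shown for 5 genes, because the starts differed in both CpG content and openness. They come from RefSeq on GRCm38.p6, the assembly of mm10, run 5′ to 3′ on the strand of the gene, and have each CG dinucleotide in capitals. The Tcf7 stretch (chr11:52283015-52283164, minus strand) lies inside the gene, because the annotated gene reaches 369 bp beyond this start site. It is thus not sequence before the gene, as the other stretches are. The Cd3e stretch begins 52 bases beyond its start site, at the outer end of the gene, and the other stretches are next to theirs. Those of genes other than Tcf7 lie outside their genes, at chr9:45009664-45009813 (Cd3e, minus strand), chr6:71373277-71373426 (Cd8a, plus strand), chr7:24897347-24897496 (Cd79a, plus strand) and chr7:4337565-4337714 (Ncr1, plus strand). The Tcf7 stretch holds 21 CG dinucleotides, those of Cd3e and Cd79a 4 each, and those of Cd8a and Ncr1 0.
Tcf7: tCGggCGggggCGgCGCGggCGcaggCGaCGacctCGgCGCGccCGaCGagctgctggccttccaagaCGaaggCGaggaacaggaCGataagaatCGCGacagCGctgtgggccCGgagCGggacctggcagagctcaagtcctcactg
Cd3e: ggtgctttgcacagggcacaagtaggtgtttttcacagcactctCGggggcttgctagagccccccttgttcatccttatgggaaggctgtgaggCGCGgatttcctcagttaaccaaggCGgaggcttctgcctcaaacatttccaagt
Cd8a: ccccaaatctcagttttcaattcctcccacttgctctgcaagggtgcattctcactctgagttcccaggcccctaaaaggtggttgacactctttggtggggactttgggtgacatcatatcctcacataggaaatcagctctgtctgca
Cd79a: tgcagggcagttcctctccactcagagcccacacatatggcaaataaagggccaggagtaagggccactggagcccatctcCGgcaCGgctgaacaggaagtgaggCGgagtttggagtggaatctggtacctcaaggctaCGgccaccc
Ncr1: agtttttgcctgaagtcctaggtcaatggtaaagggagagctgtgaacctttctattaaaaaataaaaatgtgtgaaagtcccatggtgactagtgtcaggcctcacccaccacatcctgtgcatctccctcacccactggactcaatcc

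Cd3e, which encodes the CD3 epsilon chain of the T cell receptor complex (chromosome 9, 44998735 to 45009663), had 0 peaks within 10 kb in every library. The nearest peak lay 14594 and 11965 bp from the gene in KrasLA1 replicates 1 and 2, against 14567 and 32661 bp in KrasLA1;Dicer1S2D replicates 1 and 2. Cd8a, the alpha chain of the CD8 coreceptor of cytotoxic T cells (chromosome 6, 71373427 to 71379171), also had 0 peaks in every library. Its nearest peak lay 60819, 39836, 39853 and 60952 bp away in the same order of libraries. An absence of regions was common: 23.1% of 20665 autosomal protein-coding genes had none within 10 kb.

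Cd4, the coreceptor of helper T cells (chromosome 6, 124864693 to 124888247), had 3 regions within 10 kb. Its peak numbers were 3 and 2 in KrasLA1 replicates 1 and 2, against 3 and 1 in KrasLA1;Dicer1S2D replicates 1 and 2, a mean of 2.5 ± 0.707 (SD, n = 2) against 2 ± 1.41 (SD, n = 2). The groups overlapped. The first region (124857000 to 124857549) was called in all 4 libraries and lay in P3h3, a prolyl hydroxylase gene, 168 bp from its annotated start. The second (124863705 to 124864189) lay in Gpr162, an orphan receptor gene, 504 bp from Cd4, and was called in replicate 1 of both groups and in neither replicate 2.

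The third Cd4 region (124872237 to 124872709) was the sole one inside the gene. Its peak was 473 bp wide in KrasLA1 replicate 1, 237 bp in KrasLA1 replicate 2 and 399 bp in KrasLA1;Dicer1S2D replicate 1, with no peak in KrasLA1;Dicer1S2D replicate 2. The missing library was the one with the fewest peaks, 34767, and the part of this in the missing call was not tested. Without KrasLA1;Dicer1S2D replicate 1 this region would count as lost.

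Lck, the kinase that starts T cell receptor signalling (chromosome 4, 129548344 to 129573641, minus strand), had the widest region of the 9 loci. This region (129555535 to 129557138, 1604 bp) lay inside the gene, 1234 bp downstream of the inner of its 2 annotated start sites, and was wider than 97.8% of autosomal regions. It held 2 peaks in each replicate 1 and 1 peak in each replicate 2. Summed peak width was 1313 and 1130 bp in KrasLA1 replicates 1 and 2, against 890 and 388 bp in KrasLA1;Dicer1S2D replicates 1 and 2. Both KrasLA1 values were higher than both KrasLA1;Dicer1S2D values, without centring. Of autosomal regions with 1 peak in each library, which exclude this region, 26.7% had both KrasLA1;Dicer1S2D peaks narrower before centring. In a limma fit of summed widths, centred on the median of each library, the log2 difference was -0.89. Its 95% confidence interval was -1.92 to 0.15 (limma, unadjusted p = 0.0794, Benjamini-Hochberg adjusted p = 0.999).

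Neither annotated start of Lck had a peak in any library. The nearest peak lay 1185 to 1372 bp from the 300-base window around the inner start, and 10763 to 10911 bp from that around the outer start. The other Lck region (129542140 to 129543092) overlapped the Hdac1 gene end nearer to Lck, 5252 bp from Lck, and was called in all 4 libraries. Hdac1 encodes a histone deacetylase. The annotation used gave no strand for it, so whether this end is its start is not stated.

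Tcf7, which encodes TCF-1, a transcription factor of T cell development and memory (chromosome 11, 52246527 to 52283383, minus strand), was the 1 gene of the 9 that had a peak no more than 2 kb from an end in all 4 libraries. The region there (52282844 to 52283540) overlapped the outer of its 2 annotated starts and had peaks of 627 and 661 bp in KrasLA1 replicates 1 and 2, and of 213 and 362 bp in KrasLA1;Dicer1S2D replicates 1 and 2. The groups did not overlap, with both KrasLA1;Dicer1S2D peaks narrower, as at 26.7% of autosomal regions with 1 peak in each library.

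The narrower Tcf7 peaks ended short of the annotated start site at 52283014. They still covered the outer end of the annotated gene at 52283383, as did both KrasLA1 peaks. In KrasLA1 replicate 1 the peak ran from 52282844 to 52283470 and in KrasLA1 replicate 2 from 52282880 to 52283540, both across the start site at 52283014 and over all 150 bases printed for Tcf7. In KrasLA1;Dicer1S2D replicate 1 it ran from 52283288 to 52283500 and in replicate 2 from 52283171 to 52283532, which left the start site 274 and 157 bp outside and covered 0 of the printed bases. Of 31396 annotated autosomal start sites, 153 (0.487%) were inside a peak of both KrasLA1 and neither KrasLA1;Dicer1S2D library, and 20 (0.0637%) showed the reverse. This position was singled out after its values were seen, and it was not tested. A second Tcf7 region of 218 bp (52253969 to 52254186), inside the gene, was called in KrasLA1;Dicer1S2D replicate 2 only.

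**Figure D2:**
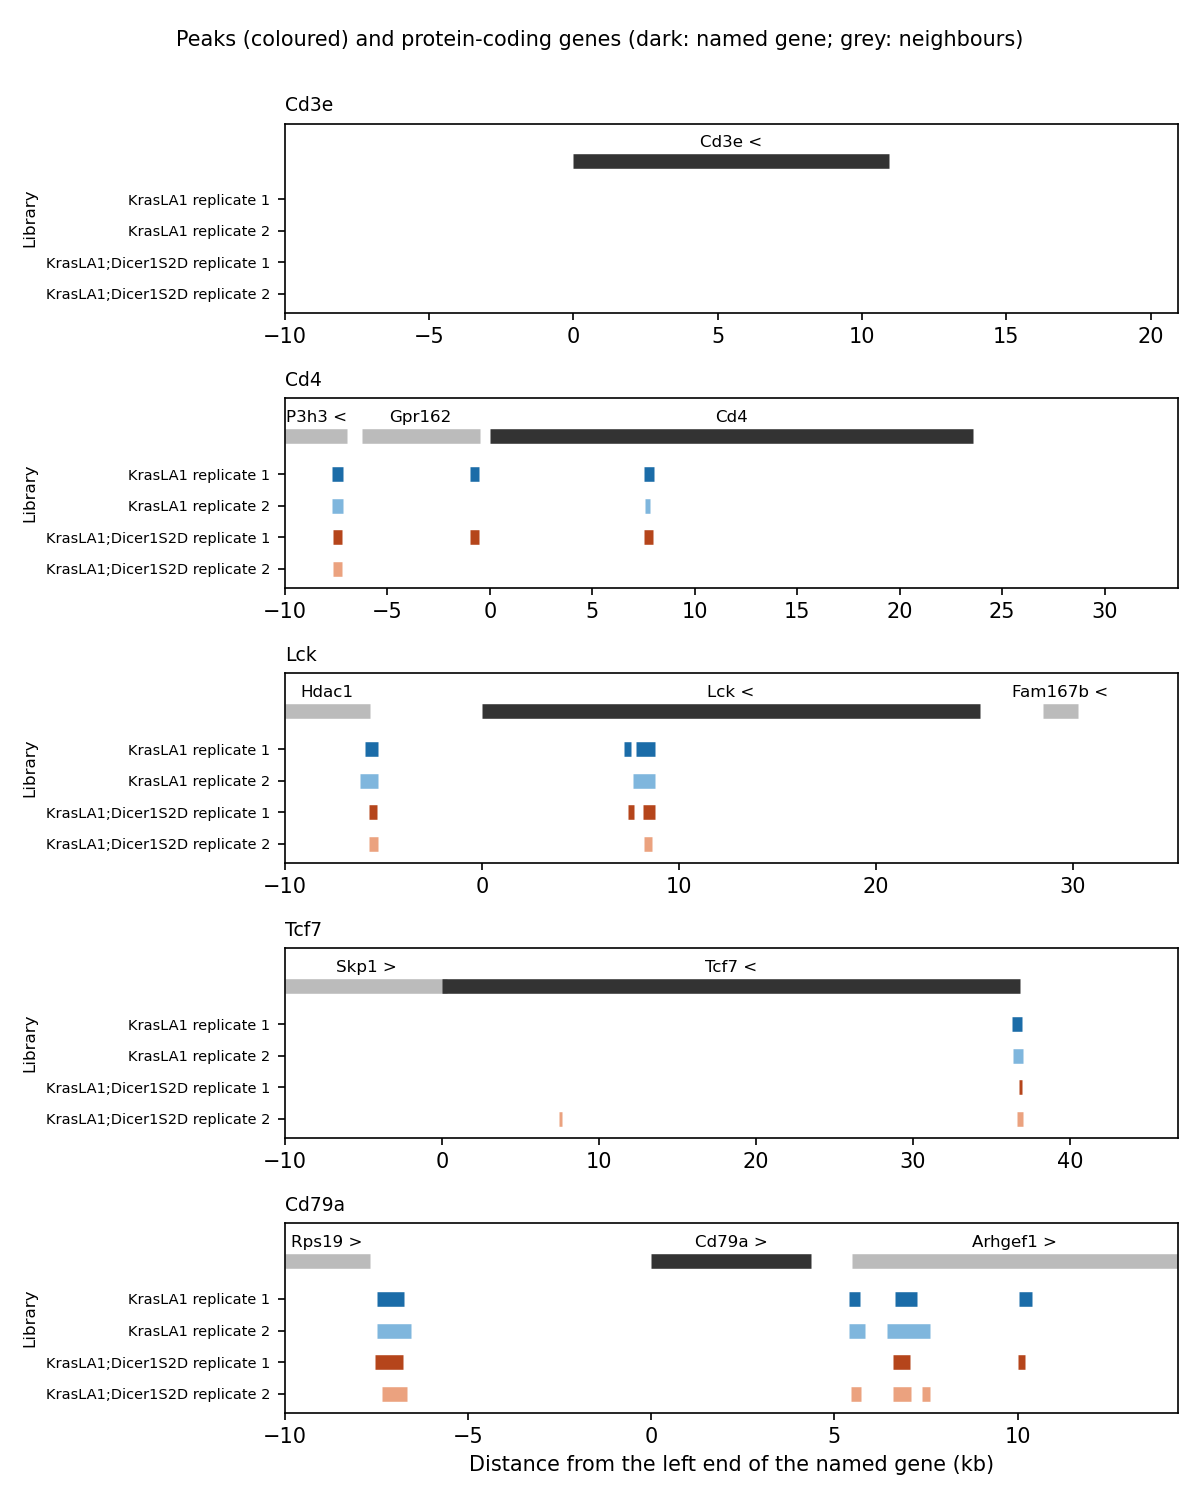
Positions of the peaks of each library within 10 kb of Cd3e, Cd4, Lck, Tcf7 and Cd79a, against the distance in kb from the left end of the named gene (dark bar), with neighbouring protein-coding genes in grey and arrows for strand where the annotation gives it. Cd3e has 0 peaks, the Cd79a peaks lie outside its body, and the peaks at the right end of Tcf7 are narrower in both KrasLA1;Dicer1S2D libraries.

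Cd79a, a signalling chain of the B cell receptor (chromosome 7, 24897497 to 24901858), had 4 regions within 10 kb and 0 inside the gene. Its peak numbers were 4 and 3 in KrasLA1 replicates 1 and 2, against 3 and 4 in KrasLA1;Dicer1S2D replicates 1 and 2, a mean of 3.5 ± 0.707 (SD, n = 2) in each group. The nearest gene to every one of these regions was a neighbour. One region (24889955 to 24890936), called in all 4 libraries, lay 144 bp beyond Rps19, a ribosomal protein gene. The other 3 overlapped Arhgef1, a guanine nucleotide exchange factor gene, and 2 of them (24902884 to 24903325 and 24903932 to 24905117) held annotated starts of it.

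The first of these Arhgef1 start regions had peaks of 312, 421 and 283 bp in KrasLA1 replicates 1 and 2 and KrasLA1;Dicer1S2D replicate 2, and no peak in KrasLA1;Dicer1S2D replicate 1. The second was called in every library. The last Cd79a region (24907515 to 24907891) was called in replicate 1 of both groups alone, with peaks of 372 bp in KrasLA1 and 186 bp in KrasLA1;Dicer1S2D.

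Ms4a1, which encodes the B cell surface protein CD20 (chromosome 19, 11249679 to 11266149), had 1 region, of 562 bp inside the gene (11263678 to 11264239). It was called in KrasLA1 replicate 2 only. In KrasLA1 replicate 1 and KrasLA1;Dicer1S2D replicates 1 and 2 the nearest peak lay 128179, 114635 and 130160 bp from the gene. Without KrasLA1 replicate 1 this region would count as lost.

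Ebf1, a transcription factor of the B lineage that is also found in stromal and fat precursor cells (chromosome 11, 44618100 to 45008096), is the longest of the 9 genes at 389997 bp and had 0 regions in its body. Of 354 other autosomal protein-coding genes at least as long, 48 (13.6%) had none, and the median was 5. Its 1 region (44610998 to 44611498) lay 6602 bp before the outer start. It was called in both replicates 2, with peaks of 501 bp in KrasLA1 and 223 bp in KrasLA1;Dicer1S2D, and in neither replicate 1.

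Ncr1, which encodes the natural killer cell receptor NKp46 (chromosome 7, 4337715 to 4345184), had 0 peaks within 10 kb in every library. The nearest peak lay 28195 and 28217 bp away in KrasLA1 replicates 1 and 2, and 28283 bp away in both KrasLA1;Dicer1S2D libraries.

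Peak width was the 1 number per peak that could be compared across regions. Of the 6 regions at lymphocyte loci with a peak in every library, 4 had exactly 1 peak in each and entered a limma fit of log2 width over 24604 such autosomal regions, centred on the median of each library. Both KrasLA1;Dicer1S2D peaks were narrower than both KrasLA1 peaks, in bp, at 3 of the 4, the regions of Tcf7, Hdac1 (near Lck) and P3h3 (near Cd4). The same was true of 26.7% of the 24604 regions. After centring it held at 2 of the 4, those of Tcf7 and Hdac1, against 10.5%, and the groups overlapped at P3h3. Both were wider at 0 of the 4 before centring, against 3.84%, and at 0 after it, against 17.2%.

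At the Tcf7 start the width was 644 ± 24.0 bp (SD, n = 2) in KrasLA1 and 287.5 ± 105 bp (SD, n = 2) in KrasLA1;Dicer1S2D. The log2 difference was -1.05 with a standard error of 0.34 and a 95% confidence interval of -1.91 to -0.20 (limma, unadjusted p = 0.024, Benjamini-Hochberg adjusted p = 1). It was -0.61 without KrasLA1;Dicer1S2D replicate 1. At the Hdac1 end the width was 616 and 953 bp in KrasLA1 replicates 1 and 2 against 387 and 465 bp in KrasLA1;Dicer1S2D replicates 1 and 2, a log2 difference of -0.69 ± 0.26 (SE; limma, unadjusted p = 0.0407, adjusted p = 1).

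At the P3h3 start the width was 535 and 541 bp in KrasLA1 against 414 and 442 bp in KrasLA1;Dicer1S2D, a log2 difference of -0.17 ± 0.21 (SE; limma, adjusted p = 1). It was -0.07 without replicate 1 of either group and -0.28 without replicate 2 of either. Beyond Rps19 the widths overlapped, at 750 and 927 bp against 758 and 674 bp, with a log2 difference of -0.06 ± 0.20 (SE; limma, adjusted p = 1). Leaving out KrasLA1 replicate 1 gave -0.10, KrasLA1 replicate 2 gave -0.03 and KrasLA1;Dicer1S2D replicate 2 gave -0.04. No region passed an adjusted p of 0.05: 0 of 24604 (0%) were called by limma over all regions, 716 (2.91%) had an unadjusted p under 0.05, and the 4 at lymphocyte loci included 0 calls and 2 with such a p. Those 2 became 1 when KrasLA1 replicate 1 was left out (1119 over all regions), 0 when KrasLA1 replicate 2 was (1391) and 0 when KrasLA1;Dicer1S2D replicate 1 was (964). On simulated widths with the spread of these libraries the test recovered none of the planted changes, so a count of 0 does not show that widths were alike. Across the 24604 regions the median log2 difference was 0.0413 after centring and -0.117 without it.

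**Figure D3:**
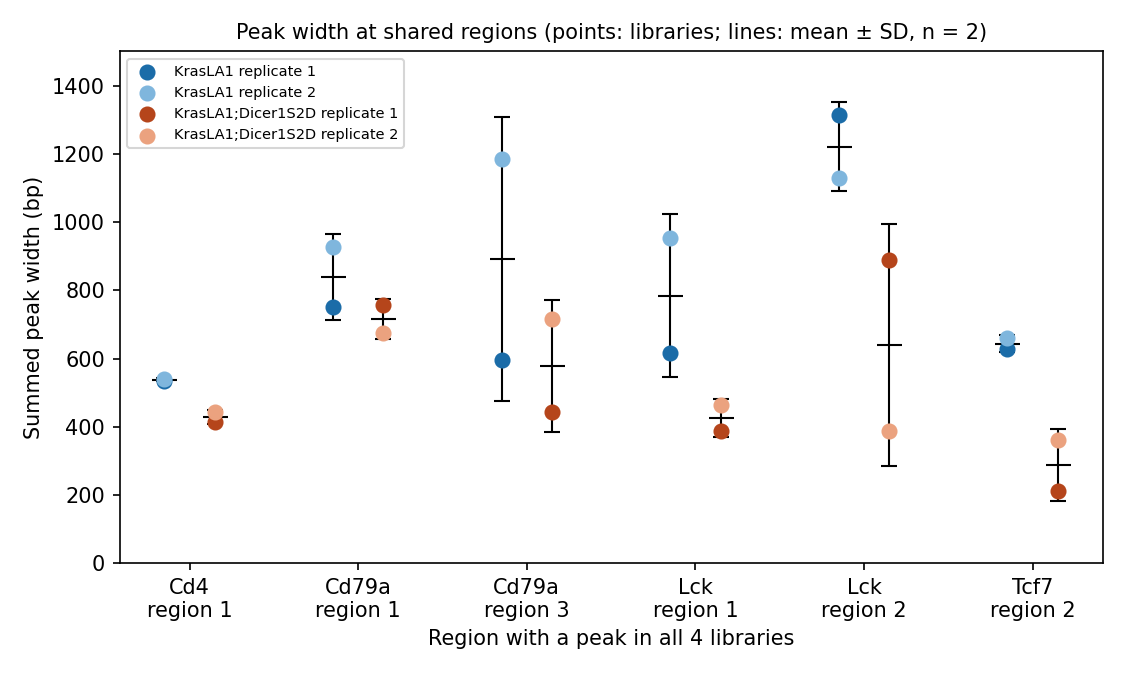
Summed peak width in bp at the 6 regions with a peak in all 4 libraries, with 1 point per library and the mean ± SD (n = 2) of each group. The groups do not overlap at Cd4 region 1 (in P3h3), Lck region 1 (at Hdac1), Lck region 2 and Tcf7 region 2, and they overlap at Cd79a regions 1 and 3. The widths are not centred, and after centring the groups overlap at Cd4 region 1. Of 24604 autosomal regions with 1 peak in each library, 26.7% have both KrasLA1;Dicer1S2D peaks narrower before centring. Lck region 2 and Cd79a region 3 are not among those regions.

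A second list of 43 lymphocyte genes was sorted by cell type. Of these, 1 had a gained region (1.37% of autosomal protein-coding genes did) and 0 a lost one (3.74% did). The gained region, of 284 bp, was 8130 bp from Cd247, the zeta chain of the T cell receptor complex, and lay in Creg1 (chromosome 1, 165771539 to 165771822). Within 10 kb, 15 of the 43 had 0 peaks in any library, against 23.1% of autosomal protein-coding genes. In the T cell class they included Cd8b1, the transcription factor gene Lef1 and Themis. In the B cell class they included the kinase gene Blk, Bank1 and the coactivator gene Pou2af1. Klrd1, the granzyme genes Gzma and Gzmb and the perforin gene Prf1 were among 5 of the 10 natural killer and cytotoxic genes, and Runx3 and Il7r were 2 of the 6 genes shared between lineages.

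Identical numbers of peaks in the 4 libraries were looked for in this list. The pattern of Cd3e, Cd8a and Ncr1, 0 in each library, was that of the same 15 genes, among 4782 other autosomal genes. The pattern of Ebf1, with 1 peak in each replicate 2 and 0 in each replicate 1, was shared by Pax5, another B lineage factor. Pax5 was among 79 other genes with it (0.382% of other autosomal genes). That of Ms4a1 was shared by Cd3d and Tbx21, which are not B cell genes of the list, among 157 (0.76%). That of Cd4 was shared by Cd22, a B cell gene of the list, among 32 (0.155%). Cd79a, Tcf7 and Lck matched 0 genes of the list.

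Gene ends were then set beside those of other cell types. Of the 9 lymphocyte genes, 3 and 3 had a peak no more than 2 kb from either end in KrasLA1 replicates 1 and 2, against 2 and 2 in KrasLA1;Dicer1S2D replicates 1 and 2. Over all autosomal protein-coding genes the shares were 58.7%, 60.4%, 60.2% and 57% in the same order. Of the 9 genes, 1 (Tcf7) had such a peak in all 4 libraries (54.2% of autosomal genes did) and 5 in none (35.8% did). The end peaks of Cd4 and Cd79a were those in Gpr162 and at Arhgef1.

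All 8 markers of lung epithelial tumour cells (Nkx2-1, Sftpc, Sftpb, Sftpa1, Epcam, Krt8, Krt18 and Cdh1) had an end peak in every library, as did all 6 genes used in every cell. Of 8 genes of tissues outside the lung, 1, 1, 2 and 0 had one in KrasLA1 replicates 1 and 2 and KrasLA1;Dicer1S2D replicates 1 and 2. Of 8 myeloid markers it was 2, 4, 3 and 4, and of 5 endothelial markers 0 in each. Of the T cell markers, 9 in number, it was 2, 3, 2 and 3, of the 6 B cell markers 2, 3, 1 and 2, and of the 5 natural killer markers 1, 0, 1 and 0. These lists are not separate from the 9 lymphocyte genes. The T cell list held Cd3e, Lck, Tcf7, Cd4 and Cd8a, the B cell list Cd79a, Ms4a1 and Ebf1, and the natural killer list Ncr1. Their other genes were in the second list. Summed peaks within 10 kb of the T cell markers were 13, 16, 17 and 12 and of the B cell markers 5, 7, 4 and 7, so the genotypes overlapped in both. Of the B cell sums, 4, 3, 3 and 4 peaks were those of Cd79a, at regions nearest to Rps19 or Arhgef1. The same sums were 19, 19, 19 and 16 for the myeloid and 10, 12, 10 and 8 for the endothelial markers. Endothelial markers thus lacked end peaks but not all peaks, though 3 of the 5 had none within 10 kb in any library. The part of cell numbers in these values was not tested.

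**Figure D4:**
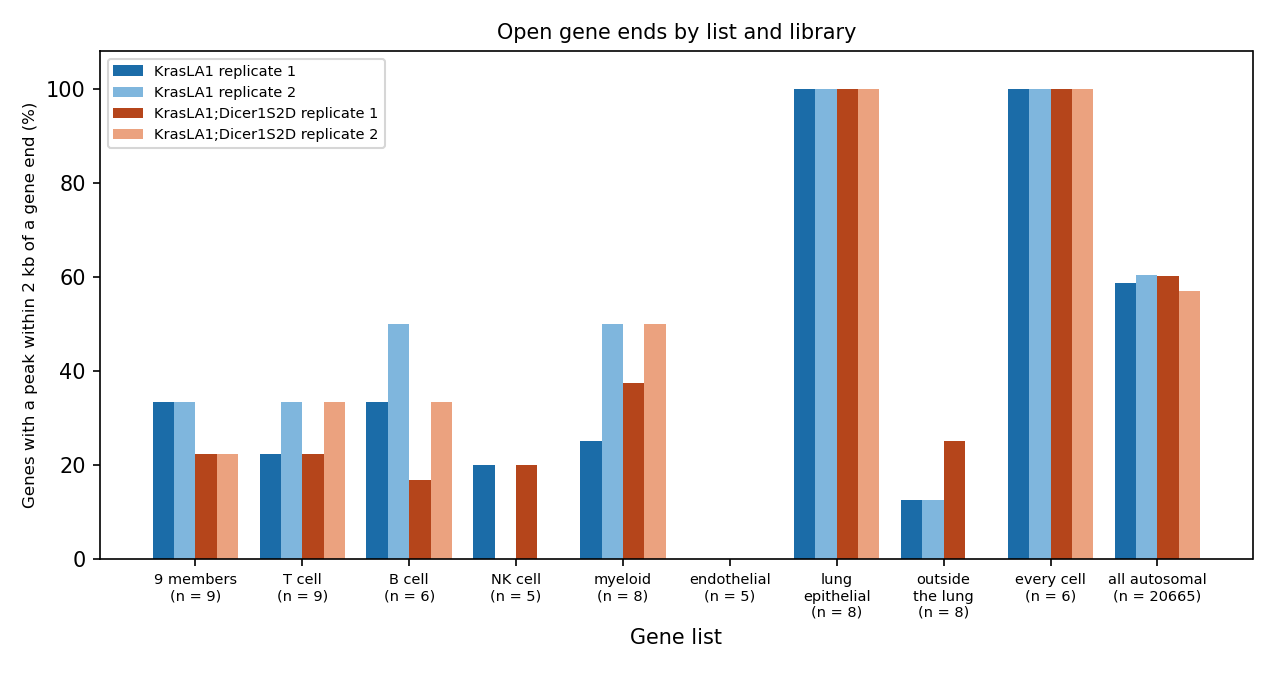
Share of genes (%) with a peak within 2 kb of either gene end, by list and library, with the number of genes under each list and all autosomal protein-coding genes at the right. Lung epithelial markers and genes used in every cell stand at 100% in each library, while the 9 lymphocyte genes stand at 3 of 9 in both KrasLA1 and 2 of 9 in both KrasLA1;Dicer1S2D libraries. The T cell, B cell and NK cell lists hold these 9 genes again.

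The annotation gave 11 start sites for 7 of the 9 genes. A 300-base window around each, from 250 bases before the start site to 50 after, held a peak at the outer Tcf7 start in KrasLA1 replicates 1 and 2 and KrasLA1;Dicer1S2D replicate 2. In KrasLA1;Dicer1S2D replicate 1 the peak lay 24 bp away. The inner Tcf7 start had one in KrasLA1 replicate 1 alone, and the other 9 windows had 0 in any library. Of the 11 windows, 2, 1, 0 and 1 thus had a peak in KrasLA1 replicates 1 and 2 and KrasLA1;Dicer1S2D replicates 1 and 2, against 38.3%, 39.7%, 38.9% and 36.9% of 31396 autosomal windows. Of the latter 34.8% had a peak in all 4 libraries and 57.7% in none.

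Over all autosomal windows, those with more CG dinucleotides more often had a peak in every library. The 250 bases before the outer Tcf7 start, which lie inside the annotated gene, held 37 CG dinucleotides and were 76% G or C. Of autosomal windows 98.1% had as few CG dinucleotides or fewer. The same stretch held 7 at Cd3e, 6 at Cd79a, 3 at the inner and 1 at the outer Lck start, and 0 at Cd8a and Ncr1. Among all windows with 0 CG dinucleotides 1.21% had a peak in all 4 libraries, with 1 to 3 it was 4.83%, with 4 to 7 it was 16.6%, and with 30 or more it was 77.9%. The Ebf1 starts, with 9 and 14, had no peak, while 47.8% of windows with 8 to 11 and 71.5% with 12 to 19 had one in all 4 libraries.

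**Figure D5:**
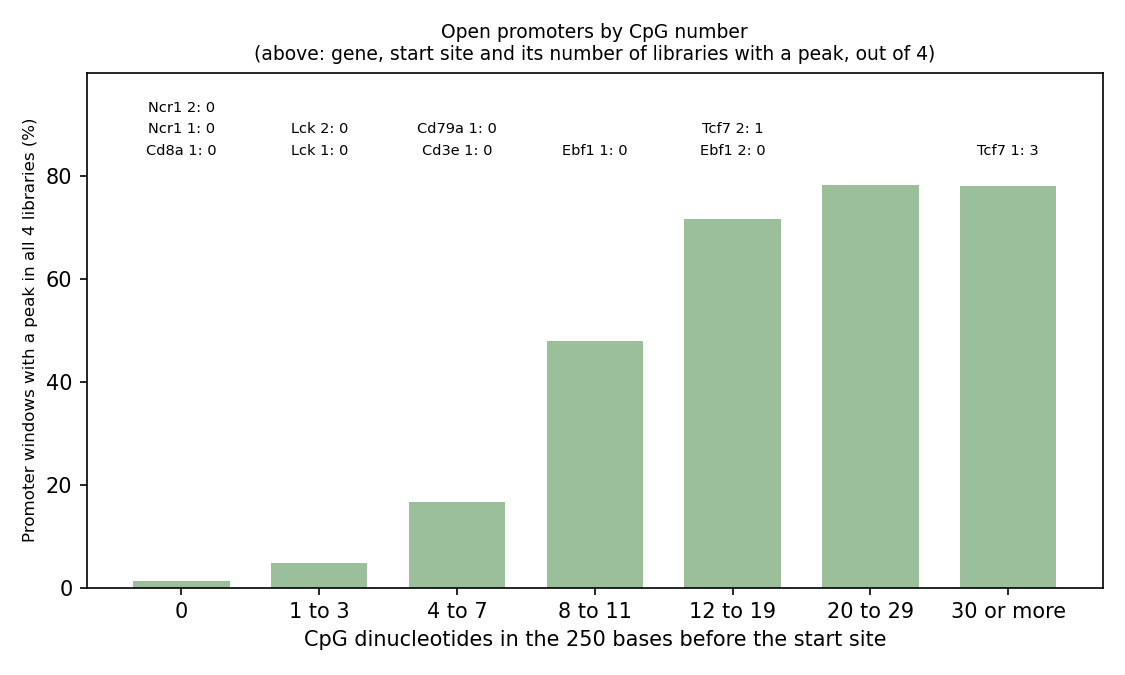
Share of autosomal promoter windows (%) with a peak in all 4 libraries, by the number of CG dinucleotides in the 250 bases before the start site, with each lymphocyte start site named above its group beside the number of libraries in which it had a peak. The share is 1.21% at 0, 78.1% at 20 to 29 and 77.9% at 30 or more, and among the 11 start sites of the 7 genes in the annotation those of Tcf7 are the only ones with a peak.

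Binding motifs were searched by their letters on both strands of the same 250 bases, and some of the 11 stretches overlap each other. GGAAG, the core of ETS factors, was in 8 of the 11 stretches and in 64% of all 31396. TGTGGT, bound by RUNX factors, was in 4 (the outer Lck start, both Ncr1 starts and the outer Ebf1 start) against 14% of all. CAGGTG, an E-box, was in 2 (Cd79a and the inner Lck start) against 17.4%. CTTTGA of TCF and LEF factors, ATGCAAA of octamer factors and CCCNNGGG of EBF factors were in 0 of the 11, against 13.8%, 4.19% and 12% of all. The letters alone were searched, and a match is a description of the sequence.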

How the data were processed

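Per the file headers, the authors deposited 5 tracks of intervals in mm10, 4 holding the peaks of 1 library each and 1 holding merged regions, with no value per interval. Tools listed in the submitters' processing notes are deepTools 3.5.1, MACS3 3.0.0 and BWA 0.7.12. The sources used here do not state their roles, settings, peak threshold or any shift for the transposase. Per the labels' protocols, 40-50 mg of tumour was frozen and a company made and analysed the libraries. All rows were assigned to samples by the number in their names, and 0 belonged to others.

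A region was called in a library if it shared 1 bp or more with a peak. Gene positions and promoters came from RefSeq tables for GRCm38.p6. Log2 peak width was fitted with limma 3.58.1 in R 4.3.3, with Benjamini-Hochberg adjustment, and the limma test measures only the spread between these mice. Counts used Python 3.11.15 and figures matplotlib 3.10.9. The counting and width steps were tested on simulated data. The 9 genes and the lists were chosen with earlier results of these data known, so no test over them was made. All 9 were named, and of the second list up to 4 genes per class with a gained or lost region, with no peak, or with the peak numbers of one of the 9. Some genes that this rule names are not reported here. The CG dinucleotide counts were chosen after seeing the data.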

Additional observations from a re-analysis of the deposited data

How the results depend on the processing

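The difference of -1 region between group means kept its sign under all alternatives run, though not all of them kept the groups apart. It was -0.5 with gene bodies only and with regions nearest to the 9 genes only, -1.5 with the 34767 widest peaks of each library, -3 with peaks of at least 300 bp, and -5.5 where a peak had to cover 50% of the region (chosen for this value after seeing the data). It was -1 with 2 kb around the gene. It was also -1 with any single library left out, which the equal counts within each group fix in advance. The KrasLA1 and KrasLA1;Dicer1S2D groups shared a value with gene bodies only (3 and 4 against 3 and 3). They also did with nearest regions only (3 and 5 against 3 and 4) and with the 34767 widest peaks (10 and 9 against 7 and 9). Gained regions were 0 with all libraries, and 0 to 1 with 1 library left out, against 1.78% to 12.4% of all autosomal regions. Lost regions were 0, but 1 with peaks of at least 300 bp (at Arhgef1, near Cd79a), against 976 (1.61%) of all autosomal regions. They were 3 where a peak had to cover 50% of the region (at Arhgef1, Hdac1 and in Lck), against 1541 (2.54%). Each peak was tested singly under that rule. Summed peaks passed 50% at Arhgef1 in KrasLA1;Dicer1S2D replicate 2 (716 of 1186 bp). They also did in Lck in KrasLA1;Dicer1S2D replicate 1 (890 of 1604 bp). The regions at Arhgef1 and Hdac1 had the bounds of the KrasLA1 replicate 2 peak, which thus covered all of each. Lost regions were 0 to 1 with single libraries left out, against 2.59% to 10.3% of all autosomal regions. Without KrasLA1 replicate 1 the lost region was in Ms4a1, without KrasLA1;Dicer1S2D replicate 2 at Arhgef1, and without KrasLA1;Dicer1S2D replicate 1 in Cd4, with a Tcf7 region gained. The cause was not tested, except that with 1 library left out fewer libraries decide a call.

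With the replicate number as a block, limma called 0 of 24604 peak widths and 0 of 4 at lymphocyte loci, as it did without centring, with summed widths and with single libraries left out, where a lone sample is assumed to vary like the other group. Widths of same-numbered libraries had deviations with a correlation of 0.122, and 2 pairs do not decide whether the numbers pair the mice. These counts of 0 say nothing about stability, since the test recovered no planted change at the spread of these libraries. All 4 log2 differences of width kept their sign in the 28 comparisons, which reuse the same libraries. The replicate block cannot change a difference. At Tcf7 and Hdac1, where the groups did not overlap after centring, leaving out 1 library cannot reverse the sign. Depth is unknown, so a missing peak does not show closed chromatin.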
